A study of Homo sapiens with 4 samples.

Results

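The MYC, MAX and MLX network is a family of transcription factors, and its 10 genes MYC, MAX, MXD1, MXI1, MXD3, MXD4, MNT, MLX, MLXIP and MLXIPL were taken by their symbols. This set was chosen with earlier results of these data known. All 10 were found among the 24462 gene symbols counted in HepG2 cells, a human liver cancer cell line grown in RPMI medium with fetal bovine serum. The 4 libraries came from HepG2 cells given DMSO (the solvent control), cells given PD0332991 (palbociclib, an inhibitor of the kinases CDK4 and CDK6), cells transfected with scrambled siRNA, and cells in which CDK4 and CDK6 were knocked down with siRNA (CDK4/6 KD). Each condition had 1 library, and the sources used here do not say how much PD0332991 was given, for how long, or when the transfected cells were harvested. The libraries were 3′ mRNA libraries (QuantSeq), in which a transcript gives reads near its poly(A) end.

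Proteins of this network bind DNA as pairs. MYC pairs with MAX at the E-box, whose core letters are CACGTG, and switches on genes of ribosome building, nucleotide synthesis and the cell cycle, while MXD1, MXI1, MXD3, MXD4 and MNT pair with the same MAX and recruit the SIN3 corepressor to such sites. MLX is the partner of the glucose sensors MLXIP (MondoA) and MLXIPL (ChREBP), which in liver cells switch on genes of glycolysis and fat synthesis when sugar is plentiful. MYC and the MXD proteins are known to be exchanged as cells pass from proliferation to arrest. CDK4 and CDK6 act on the side of proliferation, by phosphorylating the retinoblastoma protein.

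Windows from 250 bases before to 50 bases after each gene's start (RefSeq, GRCh38.p14) were searched for the E-box letters, CACGTG, which read the same on both strands. The promoters are shown because E-box letters are the site that the network's own proteins read, and 9 of the 10 genes matched the table, with 12 windows. The letters were found in 3 of the 12 windows, those of MXD4, MNT and MLX, against 2548 of 35116 windows over all genes (7.26%). Among the target genes described further on, 21 of 62 windows of MYC-induced genes (33.9%) and 4 of 36 windows of MondoA and ChREBP targets (11.1%) held them. The E-box began 238 bases before the start in MXD4, 193 in MNT and 50 in MLX, and PKLR and ARRDC4, a liver pyruvate kinase and an arrestin-like gene that are known ChREBP and MondoA targets, held one at 197 and 210 bases. The sequences are shown 5′ to 3′ on the gene's own strand, with the E-box in capitals. They lie at chr4:2262302-2262359 (minus strand) for MXD4, chr17:2401208-2401293 (minus) for MNT, chr17:42567010-42567095 (plus) for MLX, chr1:155301590-155301675 (minus) for PKLR and chr15:97960453-97960538 (plus) for ARRDC4.
MXD4: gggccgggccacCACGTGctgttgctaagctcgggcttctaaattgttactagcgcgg
MNT: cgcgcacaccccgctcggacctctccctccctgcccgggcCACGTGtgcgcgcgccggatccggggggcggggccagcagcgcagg
MLX: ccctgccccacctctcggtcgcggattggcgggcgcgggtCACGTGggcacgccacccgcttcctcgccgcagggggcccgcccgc
PKLR: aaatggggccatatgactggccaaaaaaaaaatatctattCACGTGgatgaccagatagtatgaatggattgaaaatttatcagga
ARRDC4: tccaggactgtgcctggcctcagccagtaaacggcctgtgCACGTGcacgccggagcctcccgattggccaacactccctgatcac
A match gives the letters only, and no binding was measured.

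Library totals ran from 8983848 to 11176880 reads. Levels are given in CPM, the reads of a gene relative to the TMM-corrected size of its library, and fold changes were taken after adding 0.5 reads to each count. The 95% intervals were computed by the exact Clopper-Pearson method from how the reads of a gene divide between both libraries. They cover counting error only, so that no difference below has a replicate check and no test between conditions was possible. The PD0332991 and CDK4/6 KD libraries are called the inhibited libraries, and DMSO and scrambled siRNA the controls. CDK4 was at 301, 257, 354 and 71.9 CPM and CDK6 at 515, 479, 536 and 129 CPM in DMSO, PD0332991, scrambled siRNA and CDK4/6 KD, so both targeted genes were lowest in the knockdown. All 16 hepatocyte markers were counted above 3 reads in every library, with summed levels of 19137, 22597, 19145 and 25296 CPM. Summed keratinocyte markers were at 366 to 586 CPM, fibroblast markers at 130 to 263 and blood cell markers at 513 to 1039. Few genes made up most of these sums: LYZ of the blood cell markers (501 to 1022 CPM), ACTA2 of the fibroblast markers (88.4 to 174), and SFN, PERP and KRT10 of the keratinocyte markers. The blood cell genes PTPRC and CD3E had at most 2 reads in a library. The keratins KRT14 and KRT5 were counted at 249 and 113 reads after PD0332991, against 9 and 2 in DMSO. They had 31 and 13 reads in scrambled siRNA and 74 and 43 in CDK4/6 KD. Of 18 keratinocyte markers, 12 passed the read filter given below for PD0332991 against DMSO, with 8 at least 2-fold higher and 1 lower. The lower gene was SFN, at 134 CPM in DMSO and 61.8 in PD0332991. TP63, DSG3 and DSC3 had 1, 2 and 6 reads in DMSO and 1, 2 and 7 in PD0332991. In bulk RNA, fewer cells of a type and less RNA per cell cannot be told apart, and the part of these marker differences in the results below was not tested.

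All 10 network genes passed the filter of 10 reads in either library of each comparison. In CDK4/6 KD against scrambled siRNA, 0 of 10 were at least 2-fold higher and 0 of 10 at least 2-fold lower, where 9.19% and 7.62% of all genes were. After PD0332991 against DMSO, 1 of 10 was at least 2-fold higher (MXD4) and 1 of 10 at least 2-fold lower (MLX), where 7.49% and 7.06% of all genes were. Between the controls, scrambled siRNA against DMSO, 0 of 10 were past 2-fold in either direction, where 5.30% of all genes were higher and 6.64% lower. The intervals left out 1 for 7, 8 and 7 of the 10 genes in these comparisons, where they did so for 61.9%, 56.7% and 56.3% of all genes. The counts past 2-fold are near the shares of all genes, so the results are those of single members. The interval counts were above the shares of all genes, and such an interval narrows as a gene has more reads. The comparisons of PD0332991 and of scrambled siRNA both use the DMSO library, and those of CDK4/6 KD and of scrambled siRNA both use the scrambled library.

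**Figure D1:**
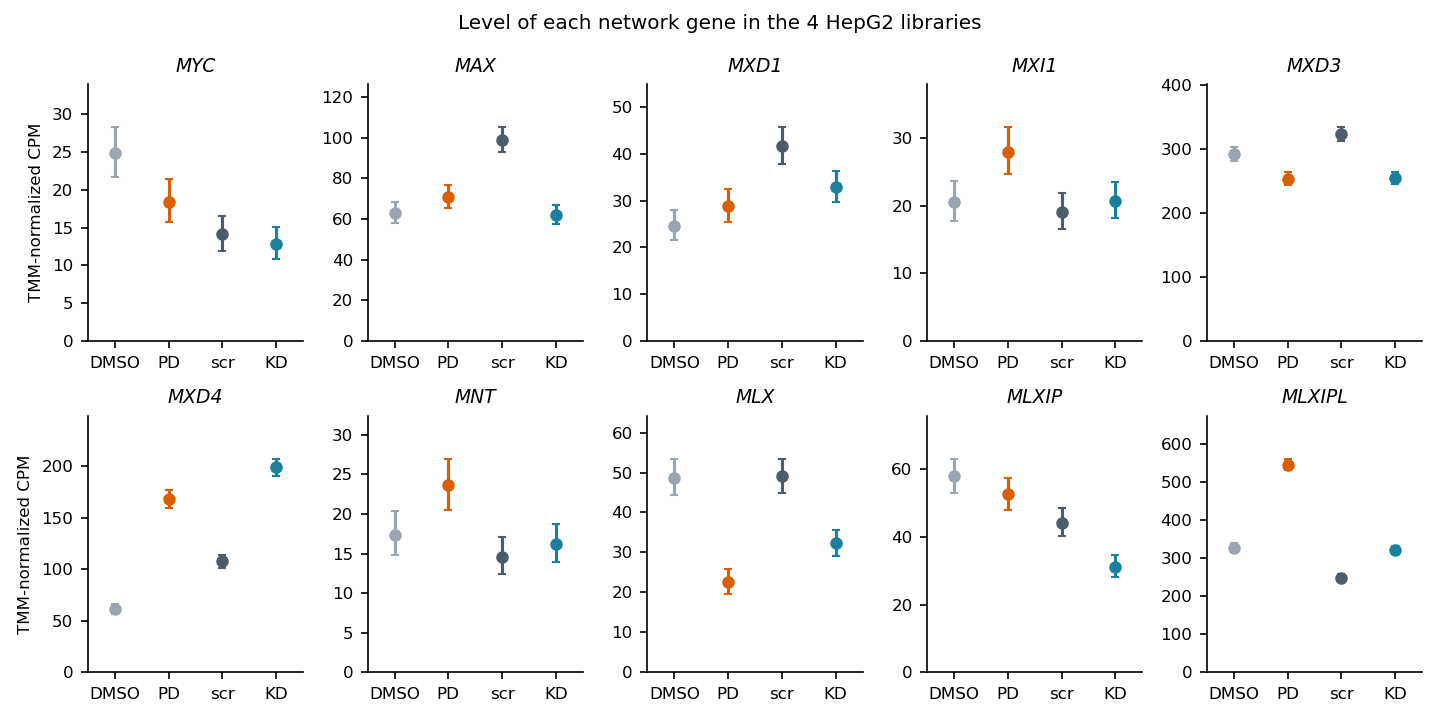
Level of each network gene in the 4 libraries (y axes, TMM-normalized CPM from 0; x axes, DMSO, PD for PD0332991, scr for scrambled siRNA and KD for CDK4/6 KD), with points for the single library of each condition and bars for its 95% counting interval. MXD4 had its 2 highest levels in KD and PD, and MYC its highest in DMSO.

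MYC, the activator of the network (chr8:127735434-127741434, plus strand; positions of genes are from GENCODE 29 on GRCh38), was at 24.8 CPM in DMSO (227 reads), 18.5 in PD0332991 (168 reads), 14.1 in scrambled siRNA (151 reads) and 12.8 in CDK4/6 KD (145 reads). DMSO was the highest and both transfected libraries were the lowest. The knockdown differed from scrambled siRNA by no more than counting error (fold change: 0.908, interval 0.718 to 1.15). PD0332991 was below DMSO (fold change: 0.743, interval 0.605 to 0.911), and scrambled siRNA was further below it (fold change: 0.569, interval 0.459 to 0.701). Thus the controls differed in MYC by more than either inhibited library differed from its own control, and against scrambled siRNA the PD0332991 library was higher (fold change: 1.31, interval 1.04 to 1.64).

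MAX, the partner that MYC and the repressors share (chr14:65006174-65102695, minus strand), was at 63.1 CPM in DMSO, 70.9 in PD0332991, 99.0 in scrambled siRNA and 62.0 in CDK4/6 KD. Scrambled siRNA stood above the other libraries. Relative to it, MAX was lower in the knockdown (fold change: 0.627, interval 0.569 to 0.690) but at the level of DMSO (fold change: 0.982, interval 0.878 to 1.10). After PD0332991 it was slightly above DMSO (fold change: 1.12, interval 1.00 to 1.26).

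MXD4, a MAX partner known from differentiated and resting cells, differed the most of the 5 repressors. It was at 61.4 CPM in DMSO (561 reads), 108 in scrambled siRNA (1152 reads), 168 in PD0332991 (1532 reads) and 199 in CDK4/6 KD (2251 reads). Every step in this order was larger than counting error, and both inhibited libraries were above both controls. The fold change was 1.85 (interval 1.72 to 1.98) in the knockdown and 2.74 (interval 2.49 to 3.02) after PD0332991. With the controls exchanged it was 3.24 (interval 2.95 to 3.56) for CDK4/6 KD against DMSO and 1.56 (interval 1.45 to 1.69) for PD0332991 against scrambled siRNA. The controls themselves differed by a fold change of 1.75 (interval 1.58 to 1.94), close to the difference between CDK4/6 KD and its own control. MXD4 lies at chr4:2247432-2262294 on the minus strand, and its exons overlap those of the microRNA gene MIR4800 alone.

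MXD1, a repressor known to appear as cells leave the cycle (chr2:69897688-69942945, plus strand), was at 24.6 CPM in DMSO, 28.8 in PD0332991, 41.7 in scrambled siRNA and 33.0 in CDK4/6 KD. Like MAX it was highest in scrambled siRNA, which gave a fold change of 0.791 (interval 0.687 to 0.909) in the knockdown and 1.69 (interval 1.44 to 2.00) between the controls, and against DMSO the knockdown was higher (fold change: 1.34, interval 1.13 to 1.59). The PD0332991 interval included 1 (fold change: 1.17, interval 0.974 to 1.40), and against scrambled siRNA the inhibitor was lower (fold change: 0.691, interval 0.590 to 0.806). MXI1, a related antagonist of MYC (chr10:110207605-110287365, plus strand), was at 20.6, 28.0, 19.1 and 20.8 CPM in DMSO, PD0332991, scrambled siRNA and CDK4/6 KD. MNT, the repressor that most cell types express (chr17:2384060-2401118, minus strand), was at 17.4, 23.6, 14.6 and 16.2 CPM in the same order. Both MXI1 and MNT were highest after PD0332991, and the neighbouring levels below it could not be told apart by counting. The fold change after PD0332991 was 1.36 for both (intervals 1.12 to 1.65 for MXI1 and 1.10 to 1.68 for MNT), and in CDK4/6 KD it was 1.09 (interval 0.899 to 1.32) for MXI1 and 1.11 (interval 0.891 to 1.38) for MNT. Exons of MAX, MXI1 and MNT overlap antisense RNA genes in the annotation. Exons of MXD1 share 237 bases with SNRNP27 on the same strand, away from the 3′ end of MXD1 but near a 3′ end of SNRNP27. SNRNP27 had 1178, 1092, 630 and 1453 reads in DMSO, PD0332991, scrambled siRNA and CDK4/6 KD. It differed the other way from MXD1 (fold changes of 2.18 in CDK4/6 KD and 0.457 between the controls). The part of SNRNP27 reads in the MXD1 counts was not tested.

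MXD3, a repressor that is known from proliferating cells (chr5:177301461-177312757, minus strand), was at 292, 254, 323 and 255 CPM in DMSO, PD0332991, scrambled siRNA and CDK4/6 KD, below both controls in both inhibited libraries. Its exons share 1158 bases in GENCODE 29 with PRELID1, a gene of mitochondrial lipid transport on the opposite strand, and MXD3 held 34.0%, 33.8%, 33.7% and 33.9% of the reads of both genes in the 4 libraries, a share whose intervals overlapped throughout. The fold changes were 0.789 for MXD3 and 0.780 for PRELID1 in CDK4/6 KD, 0.869 and 0.877 after PD0332991, and 1.11 and 1.12 between the controls. Whether the counting used the strand was not given in the sources used here, so reads of MXD3 and PRELID1 cannot be told apart, and MXD3 was left out of the shares below, a choice made after this was seen. MXD3 also shares 926 exonic bases with RAB24 on its own strand, which had 227, 330, 303 and 305 reads and fold changes of 0.952 in CDK4/6 KD, 1.46 after PD0332991 and 1.14 between the controls.

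The other repressors, MXD1, MXI1, MXD4 and MNT, summed to 124 CPM in DMSO, 249 in PD0332991, 183 in scrambled siRNA and 269 in CDK4/6 KD. Relative to its own control, the sum was higher in the knockdown (fold change: 1.47, interval 1.39 to 1.56) and with the inhibitor (fold change: 2.00, interval 1.87 to 2.16). The controls differed as much as the knockdown and its control (fold change: 1.48, interval 1.37 to 1.59), and against scrambled siRNA the inhibitor gave 1.36 (interval 1.28 to 1.44). MXD4 made up most of this. Its share of the reads of the 4 genes was 49.5% (interval 46.6 to 52.5) in DMSO, 58.8% (56.6 to 61.0) in scrambled siRNA, 67.7% (65.7 to 69.6) in PD0332991 and 74.0% (72.4 to 75.5) in CDK4/6 KD. The share of MYC among MYC and these 4 repressors was 16.7% (interval 14.7 to 18.8) in DMSO, 7.16% (6.10 to 8.34) in scrambled siRNA, 6.91% (5.93 to 7.99) in PD0332991 and 4.55% (3.85 to 5.33) in CDK4/6 KD. The balance of MYC to repressor reads was thus highest in DMSO and lowest in CDK4/6 KD, while scrambled siRNA and PD0332991 could not be told apart. These are shares of 3′ reads within a library, so they do not depend on the normalization between libraries, and they say nothing of protein.

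**Figure D2:**
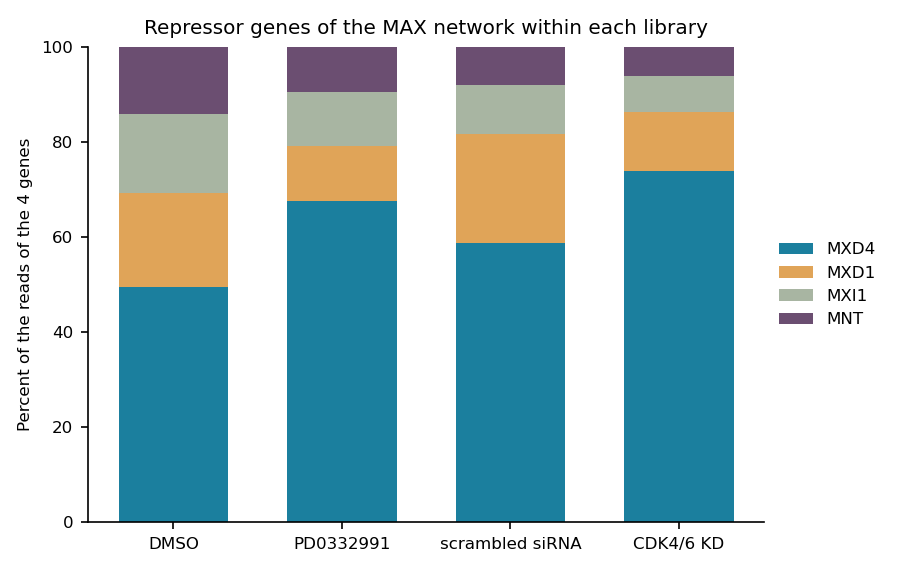
Share of MXD4, MXD1, MXI1 and MNT in the summed reads of these 4 repressor genes (y axis, percent) in each library (x axis). The MXD4 part of the bar grows from 49.5% in DMSO to 74.0% in CDK4/6 KD, and MXD3 is left out because its reads cannot be told apart from those of PRELID1.

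MLX, the partner of the glucose sensors, was at 48.7 CPM in DMSO, 22.6 in PD0332991, 49.1 in scrambled siRNA and 32.2 in CDK4/6 KD. The controls were level (fold change: 1.01, interval 0.886 to 1.15), and both inhibited libraries were below them. The fold change was 0.465 (interval 0.392 to 0.549) after PD0332991 and 0.658 (interval 0.573 to 0.753) in CDK4/6 KD, and with the controls exchanged it was 0.462 and 0.662. The choice of control therefore moved these values little. The 3′ end of MLX, at chr17:42567068-42573239, shares 770 exonic bases with the 3′ end of PSMC3IP, a gene of meiotic recombination on the opposite strand. PSMC3IP was at 33.3, 6.81, 18.6 and 10.3 CPM in DMSO, PD0332991, scrambled siRNA and CDK4/6 KD, with fold changes of 0.206 (interval 0.153 to 0.270) after PD0332991, 0.557 in CDK4/6 KD and 0.560 between the controls. The MLX share of the reads of both genes was 59.4% (interval 55.8 to 63.0) in DMSO, 76.9% (71.3 to 81.8) in PD0332991, 72.5% (69.1 to 75.7) in scrambled siRNA and 75.7% (71.6 to 79.5) in CDK4/6 KD. DMSO stood apart, and the other intervals overlapped. PSMC3IP was below its control in both inhibited libraries too, and reads of MLX and PSMC3IP cannot be told apart at this overlap.

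**Figure D3:**
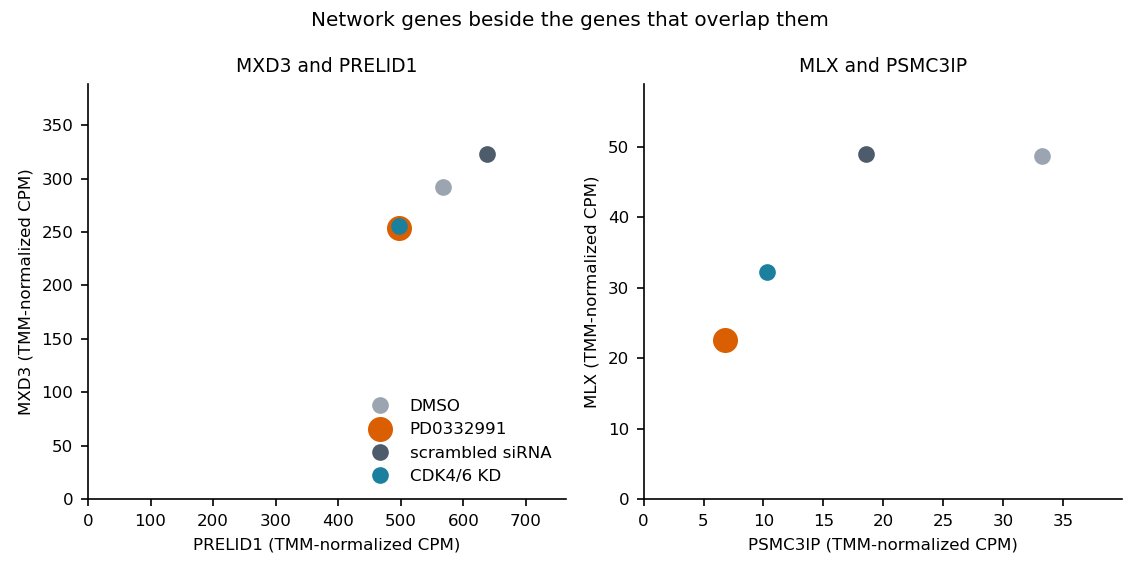
MXD3 against PRELID1 (left) and MLX against PSMC3IP (right), each axis in TMM-normalized CPM from 0 and each point 1 library. The MXD3 points lie on a line through the origin, with 33.7% to 34.0% of the reads of both genes in every library and with PD0332991 and CDK4/6 KD on top of each other. In the right panel DMSO departs from the others, with 59.4% of the reads of both genes on MLX against 72.5% to 76.9%.

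MLXIP, which encodes MondoA (chr12:122078722-122147347, plus strand), was at 58.0 CPM in DMSO, 52.6 in PD0332991, 44.3 in scrambled siRNA and 31.3 in CDK4/6 KD. CDK4/6 KD was the lowest of the libraries (fold change: 0.706, interval 0.613 to 0.812), DMSO and PD0332991 could not be told apart (fold change: 0.907, interval 0.800 to 1.03), and scrambled siRNA was below DMSO (fold change: 0.764, interval 0.673 to 0.866) and PD0332991. MLXIPL, which encodes ChREBP, the glucose sensor of liver (chr7:73593194-73624543, minus strand), was at 328 CPM in DMSO (3000 reads), 547 in PD0332991 (4979 reads), 248 in scrambled siRNA (2655 reads) and 321 in CDK4/6 KD (3634 reads). PD0332991 was the highest and scrambled siRNA the lowest. The fold change was 1.67 (interval 1.59 to 1.74) after PD0332991 and 1.29 (interval 1.23 to 1.36) in CDK4/6 KD, but CDK4/6 KD was level with DMSO (fold change: 0.978, interval 0.931 to 1.03). The share of MLXIPL among the reads of the 2 sensors was 85.0% (interval 83.8 to 86.1) in DMSO and 84.9% (83.5 to 86.1) in scrambled siRNA, and 91.2% (90.4 to 92.0) in PD0332991 and 91.1% (90.2 to 92.0) in CDK4/6 KD. So the controls had 1 share and the inhibited libraries another, although the levels behind them differed: MLXIPL was higher after PD0332991, and MLXIP was lower in CDK4/6 KD. Relative to each control the hepatocyte markers were mostly higher too, with a median log2 fold change of 0.47 after PD0332991 and 0.56 in CDK4/6 KD over the 16 genes. Between the controls their median was 0.060, while MLXIPL was lower in scrambled siRNA (fold change: 0.756, interval 0.717 to 0.796). The part of the hepatocyte markers in the MLXIPL levels was not tested.

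**Figure D4:**
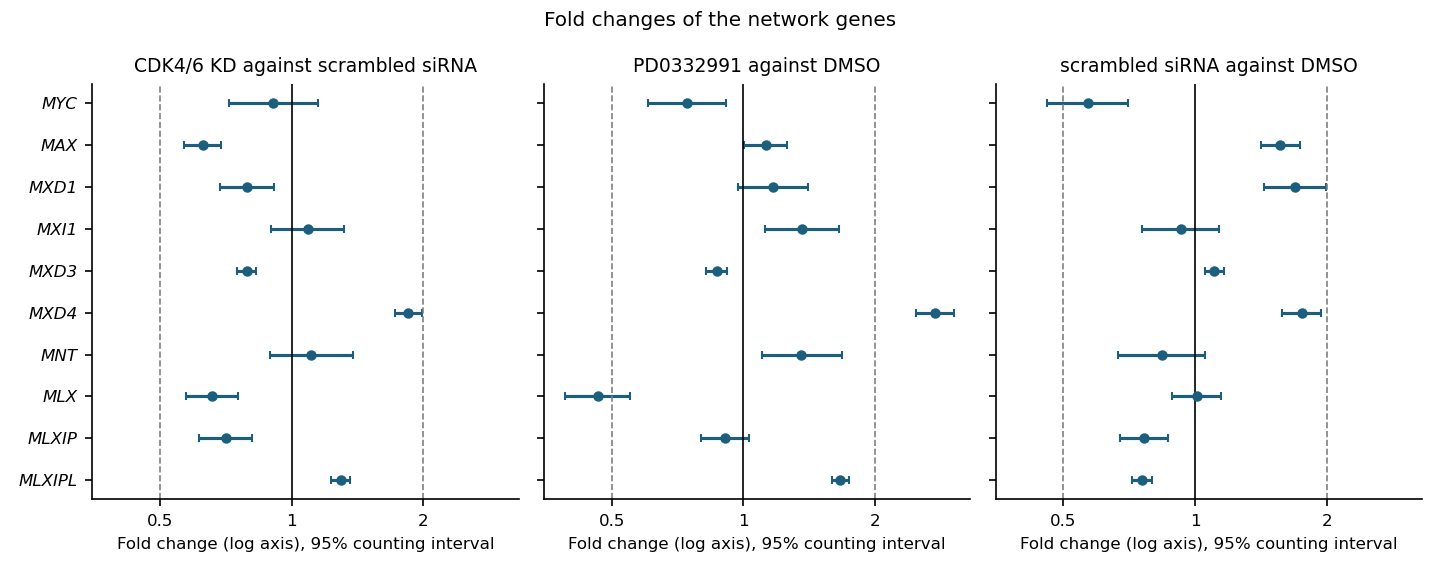
Fold change of the 10 network genes in CDK4/6 KD against scrambled siRNA, PD0332991 against DMSO and scrambled siRNA against DMSO (x axes, log scale), with points for the fold change and bars for the 95% counting interval; dashed lines mark 2-fold. Only MXD4 and MLX pass 2-fold, both after PD0332991, and MYC, MAX, MXD1 and MXD4 differ between the controls by more than 1.5-fold.

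Set against both controls at once, 2 of the 10 genes (MXI1 and MXD4) were above both controls in both inhibited libraries and 2 (MXD3 and MLX) were below both, where 20.9% and 21.8% of 13099 genes were. These shares are those of all genes, so the counts single out no member. MXI1 did so by less than counting error in CDK4/6 KD, and MXD3 and MLX overlap other genes as described above. Over the 10 genes the log2 fold changes had a median of -0.24 for CDK4/6 KD, 0.20 for PD0332991 and -0.05 for the controls, beside medians of -0.0036, 0.018 and 0.0088 over all genes.

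Most genes on a list of MYC-induced targets were below their controls in both inhibited libraries. Of 56 MYC-induced genes of growth and ribosome building, 54 passed the filter in each comparison. In CDK4/6 KD 12 of 54 were at least 2-fold lower (22.2%, against 7.62% of all genes) and 0 at least 2-fold higher, 51 were below 1 (48 with intervals below 1), and the median log2 fold change was -0.71. After PD0332991 8 of 54 were at least 2-fold lower (14.8%, against 7.06% of all genes) and 1 at least 2-fold higher, 51 had values below 1 (41 with intervals below 1), and the median was -0.53. Between the controls 0 of 54 were past 2-fold either way, with a median of 0.12, although MYC itself was the lower in the scrambled library. Since the list was written with earlier results of these data known, its counts are a description of these libraries.

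CDC25A, a phosphatase that activates cyclin-dependent kinases, was the MYC-induced gene with the firmest 2-fold difference in both comparisons. It had 512 reads in DMSO, 84 in PD0332991, 792 in scrambled siRNA and 230 in CDK4/6 KD, with a fold change of 0.275 (interval 0.236 to 0.318) in the knockdown and 0.165 (interval 0.129 to 0.208) after PD0332991. LYAR, a nucleolar protein of ribosome building, was at 189, 72.9, 199 and 91.3 CPM in DMSO, PD0332991, scrambled siRNA and CDK4/6 KD, and so was past 2-fold in both comparisons. AMD1, an enzyme of polyamine synthesis (fold change: 0.427), and DKC1, the pseudouridine synthase dyskerin (0.450, or 0.518 against DMSO), were at least 2-fold lower in CDK4/6 KD and less far below 1 after PD0332991 (0.732 and 0.648). TCOF1, a factor of ribosomal RNA transcription, was lower after PD0332991 (0.314) than in CDK4/6 KD (0.697), relative to their controls. The MYC targets ODC1, NCL and CAD were given whatever their values. ODC1, the first enzyme of polyamine synthesis, was at 234, 96.1, 278 and 194 CPM, and NCL, the nucleolar protein nucleolin, at 2602, 1704, 2725 and 1560 CPM in the same order. Both were below their controls in both inhibited libraries. CAD, the first enzyme of pyrimidine synthesis, had a fold change of 0.570 (interval 0.488 to 0.665) in the knockdown and 1.25 (interval 1.08 to 1.45) after PD0332991. SHMT2, a mitochondrial enzyme of serine metabolism, was the exception past 2-fold, at 168, 370, 250 and 301 CPM, with a fold change of 2.20 (interval 2.07 to 2.34) after PD0332991, or 1.48 against scrambled siRNA.

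Of 19 genes that MYC is known to repress, 16 passed the filter in CDK4/6 KD, with 0 at least 2-fold higher, 3 at least 2-fold lower and a median log2 fold change of -0.21, and 17 passed after PD0332991, with 1 higher, 1 lower and a median of 0.26. The shares over all genes were 9.19% up and 7.62% down for CDK4/6 KD, and 7.49% and 7.06% for PD0332991, so that 1 of 17 each way is near them. The 3 lower genes in CDK4/6 KD were CDKN1A, which encodes the cell cycle inhibitor p21 (fold change: 0.354), CDKN2B, which encodes the CDK4/6 inhibitor p15 (0.227, from 60 to 14 reads), and the stress gene NDRG1 (0.388). All 3 were high in scrambled siRNA, and against DMSO none of them was past 2-fold (0.896, 0.604 and 0.682). CDKN1A was at 131 CPM in DMSO, 166 in PD0332991, 331 in scrambled siRNA and 117 in CDK4/6 KD. After PD0332991 COL1A2, a collagen, was higher (2.24, interval 1.67 to 3.06) and THBS1, thrombospondin, lower (0.453, interval 0.380 to 0.536). COL1A2 is itself 1 of the fibroblast markers, whose sum was at 142 CPM in DMSO and 263 in PD0332991. Of that sum, ACTA2 alone gave 88.4 and 174 CPM. COL1A2 had 66, 148, 17 and 36 reads in DMSO, PD0332991, scrambled siRNA and CDK4/6 KD, and against scrambled siRNA THBS1 was at 0.578 after PD0332991. Between the controls 2 of 17 were at least 2-fold higher and 3 lower, where 5.30% and 6.64% of all genes were. Against scrambled siRNA the median of the list after PD0332991 was -0.16, so that its sign depended on the control.

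**Figure D5:**
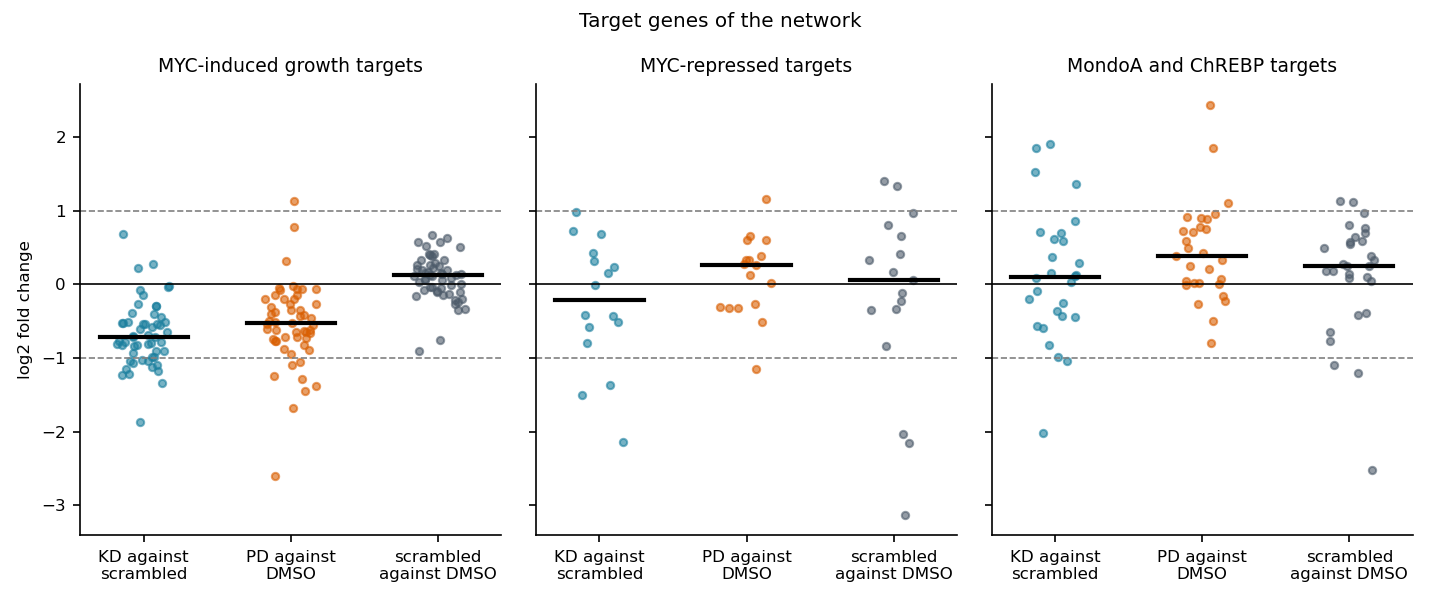
log2 fold change of the MYC-induced, the MYC-repressed, and the MondoA and ChREBP targets (y axis; each point 1 gene that passed the filter) in the 3 comparisons (x axis), with black bars for the median and dashed lines at 2-fold. MYC-induced targets lie mostly below 0 in both inhibited libraries, with medians of -0.71 and -0.53, and around a median of 0.12 between the controls.

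Of 36 targets of MondoA and ChREBP, 28 passed the filter in CDK4/6 KD, with 4 at least 2-fold higher, 2 at least 2-fold lower and a median log2 fold change of 0.10. After PD0332991 29 passed, with 3 higher, 0 lower and a median of 0.39, and between the controls 2 were higher, 3 lower and the median was 0.25. As shares these were 14.3% up and 7.14% down for CDK4/6 KD and 10.3% up for PD0332991, near the 9.19%, 7.62% and 7.49% of all genes. PKLR, the liver pyruvate kinase and a classical ChREBP target, was at 21.0 CPM in DMSO, 45.4 in PD0332991, 31.3 in scrambled siRNA and 57.2 in CDK4/6 KD. It was above both controls in both inhibited libraries (a CDK4/6 KD fold change of 1.82, interval 1.60 to 2.09, and a PD0332991 fold change of 2.16, interval 1.81 to 2.58, or 1.45 against scrambled siRNA). HCN3, which overlaps PKLR on the opposite strand, had at most 1 read per library. APOC3, an apolipoprotein, was at 244, 476, 269 and 693 CPM in DMSO, PD0332991, scrambled siRNA and CDK4/6 KD. GCKR, the regulator of glucokinase, had a fold change of 3.62 (interval 2.80 to 4.77) after PD0332991 and 1.54 (interval 1.22 to 1.95) in CDK4/6 KD. These are liver genes, and relative to each control most hepatocyte markers were higher too (13 of 16 after PD0332991 and 14 of 16 in CDK4/6 KD).

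The 2 genes that report most directly on MondoA differed in order across the libraries. ARRDC4 had 8 reads in DMSO, 14 in PD0332991, 15 in scrambled siRNA and 61 in CDK4/6 KD, with a fold change of 3.76 (interval 2.16 to 7.28) in the knockdown. TXNIP, which encodes an inhibitor of thioredoxin and of glucose uptake, was at 100, 126, 196 and 145 CPM in the same order. Its fold change was 0.742 (interval 0.695 to 0.791) in the knockdown and 1.26 (interval 1.15 to 1.37) after PD0332991, and between the controls it was 1.95 (interval 1.81 to 2.11). G6PC, the catalytic subunit of glucose-6-phosphatase, had 12 DMSO reads and 67 PD0332991 reads (fold change: 5.42, interval 3.01 to 11.4), and 2 and 1 reads in scrambled siRNA and CDK4/6 KD, at which no fold change can be given. AGPAT2, an enzyme of triglyceride synthesis, was higher in CDK4/6 KD (2.87, interval 2.13 to 3.96) and BHLHE40, a repressor of the circadian clock, lower (0.248, interval 0.178 to 0.335). Between the controls BHLHE40 had a fold change of 2.18, and against DMSO the knockdown was at 0.541. GPD1, glycerol phosphate dehydrogenase, was lower in CDK4/6 KD (0.488) and higher after PD0332991 (1.64), and it differed as much between the controls (2.20). The fat synthesis genes FASN (0.842 in CDK4/6 KD and 1.01 after PD0332991) and ACLY (1.06 and 0.834) were close to their controls, while scrambled siRNA was above DMSO in both (1.75 and 1.63).

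Partners and regulators outside the 10 genes were counted in the same way. In CDK4/6 KD 5.56% of coactivators and 6.67% of glucose sensing controls were called higher at 2-fold, below the 9.19% over all genes. Among other E-box factors it was 1 of 6 (16.7%). With PD0332991, 5.88% of SIN3 subunits, 5.56% of coactivators and 6.67% of glucose sensing controls were called lower, beside 7.06% over all genes. Such counts single out no gene. Medians over all genes were -0.0036 and 0.018. Of 17 subunits of the SIN3 corepressor, 0 were past 2-fold in CDK4/6 KD (median log2 fold change -0.034), and 1 was lower after PD0332991, the subunit SAP30 (fold change: 0.348, interval 0.225 to 0.517; median of the list -0.12). Of 18 MYC coactivators, the histone acetyltransferase adaptor TRRAP was higher in CDK4/6 KD (2.13, interval 1.497 to 3.09) and ACTL6A lower after PD0332991 (0.480, interval 0.380 to 0.600, or 0.694 against scrambled siRNA), with list medians of -0.15 and -0.050. TRRAP had 101 reads in DMSO and 67, 46 and 104 in PD0332991, scrambled siRNA and CDK4/6 KD, so that it was lowest in scrambled siRNA and at 0.832 in the knockdown against DMSO. Among 9 other E-box factors and MYC partners, 6 passed the filter, and MYCL, a MYC relative, was past 2-fold in CDK4/6 KD on 6 reads in scrambled siRNA and 23 in the knockdown (3.43, interval 1.43 to 10.9). DMSO had 15 reads, and against it the knockdown was at 1.23. The medians of the 6 were 0.32 in CDK4/6 KD and -0.11 after PD0332991. Of 17 controls of glucose sensing, 15 passed. OGT, the enzyme that adds O-linked sugar to proteins, was higher in CDK4/6 KD (2.28, interval 2.01 to 2.59, or 1.77 against DMSO) and XPO1, the nuclear export receptor, lower after PD0332991 (0.440, interval 0.393 to 0.492, or 0.510 against scrambled siRNA), with list medians of 0.017 and 0.045.

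MYC protein is short-lived, and 21 of 23 listed genes of its turnover passed the filter, with medians of -0.34 in CDK4/6 KD and -0.21 after PD0332991. In CDK4/6 KD 2 of 21 were at least 2-fold lower (9.52%, against 7.62% of all genes) and 0 higher. After PD0332991 3 of 21 were lower (14.3%, against 7.06%) and 1 higher (4.76%, against 7.49%). PPP2R5A, a phosphatase subunit that marks MYC for destruction (fold change: 0.380, interval 0.310 to 0.461), was among those lower in CDK4/6 KD. After PD0332991 the mitotic kinases PLK1 (0.125) and AURKA (0.245), both known to protect MYC proteins, and the ligase SKP2 (0.445, or 0.579 against scrambled siRNA) were at least 2-fold lower, and the ligase FBXO32 was higher on 6 reads in DMSO and 28 in PD0332991 (4.40, interval 1.90 to 13.8). SKP2 was higher in CDK4/6 KD (1.66, interval 1.53 to 1.81). PLK1 and AURKA are also cell cycle genes, and RNA levels of turnover genes do not give MYC protein. Exons of TRRAP, ACTL6A, PLK1, SHMT2, CDKN1A, THBS1, XPO1 and ACLY overlap genes on the opposite strand in GENCODE 29 and share the doubt about strand described for MXD3.

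Among the 9228 genes that averaged 100 reads or more, the 5 whose centred log2 CPM over the 4 libraries lay closest to that of MYC were NFE2L2, the regulator of the oxidative stress response (Euclidean distance 0.0921), NFIL3 (0.102), SLC29A1 (0.134), PRSS53 (0.137) and SERINC5 (0.140), and 42 genes lay within 0.25. NFE2L2 was at 305, 231, 177 and 171 CPM across DMSO, PD0332991, scrambled siRNA and the knockdown, which is the order of MYC. The closest to MLXIPL were SCARNA9 (0.0872), ZKSCAN1 (0.0960), COQ4 (0.0974), ACACB (0.126), an acetyl-CoA carboxylase, and ARHGEF10L (0.143), with 45 genes within 0.25. With 4 libraries such likeness is common and describes the shape of the values only.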

How the data were processed

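The study measured RNA of HepG2 cells in 4 QuantSeq 3′ mRNA libraries, 1 per condition as the sample labels give it. The files deposited by the authors hold whole-number read counts for each gene symbol, not normalized. The submitters' processing notes name Bowtie2, edgeR and the build hg19 without their roles, and the counter, its strand setting and the annotation are not given in the sources used here. The files list 25737 entries, in which 286 symbols recur, and entries of 1 symbol were summed, leaving 24462 genes. Library sizes were scaled with TMM factors (edgeR 4.0.16, R 4.3.3). Fold changes used a pseudocount of 0.5 reads genes had to reach 10 reads in at least 1 library of a comparison, a difference was counted past 2-fold, and 3 reads or fewer were taken as the floor. The 95% Clopper-Pearson intervals (scipy 1.17.1) cover counting error only, and PCR copies without molecular identifiers are not independent molecules. With 1 library per condition edgeR's test could not be run and no p-value was computed.

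The 10 members and the gene lists (8 pathway lists with 191 genes found, and lists of hepatocyte, keratinocyte, fibroblast and blood cell markers) were chosen with earlier results of these data known. Genes named were the members, up to 3 genes per pathway list, comparison and direction among those past 2-fold (ranked by the interval end nearest to 1), ODC1, NCL, CAD, TXNIP, ARRDC4, PKLR, FASN and ACLY whatever their values, and the 5 genes most like MYC and MLXIPL in centred log2 CPM. Some results that this rule would name are not reported here. Marker genes, targeted genes and genes that overlap a named gene were given beside these. Positions and overlaps come from GENCODE 29 (GRCh38), promoters from RefSeq (GRCh38.p14), and no coordinate comes from the deposited files, which carry symbols only. Alternatives were DESeq2 size factors (DESeq2 1.42.0), total counts, a pseudocount of 5 reads, no filter or a filter of 50 reads, a 1.5-fold threshold, the control of the other arm, the entry with most reads for a symbol that recurs and, added after the data were examined, leaving out MXD3 and MLX. The procedure was run on simulated counts that held counting error only, the error that the intervals assume. That run therefore says nothing of variation between cultures or of PCR copies.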

Additional observations from a re-analysis of the deposited data

Results flagged for a closer look

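In 10 genes the 95% counting intervals of both comparisons left out 1 on opposite sides, below 1 in CDK4/6 KD against scrambled siRNA and above 1 after PD0332991 against DMSO, or the reverse. With 1 library per condition the difference between the comparisons was not tested. Among the network genes this was MAX, with a fold change of 0.627 in CDK4/6 KD and 1.12 after PD0332991. Among MYC targets, CDKN1A had 0.354 and 1.27, NDRG1 0.388 and 1.57, and CAD 0.570 and 1.25, while THBS1 went the other way with 1.35 and 0.453. Among MondoA and ChREBP targets, GPD1 had 0.488 and 1.64, TXNIP, which is listed under MYC-repressed targets too, 0.742 and 1.26, and ACLY 1.06 and 0.834. Of the coactivators and turnover genes, TRRAP had 2.13 and 0.667 and SKP2 1.66 and 0.445. MAX, CDKN1A, NDRG1, GPD1 and TXNIP had more in scrambled siRNA than in DMSO (fold changes of 1.57, 2.53, 1.76, 2.20 and 1.95), and TRRAP was lower (0.392).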

How the results depend on the processing

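The choice of control moved the results most. Against DMSO instead of scrambled siRNA, the fold change in CDK4/6 KD crossed 1 for MXD1 (1.34), MLXIPL (0.978), MNT (0.929, from a value whose interval included 1), TRRAP (0.832), COL1A2 (0.444), GPD1 (1.07), TXNIP (1.45) and FASN (1.47). Below 2-fold fell CDKN1A (0.896), CDKN2B (0.604), NDRG1 (0.682), DKC1 (0.518), BHLHE40 (0.541), MYCL (1.23) and OGT (1.77), and 1 member (MXD4) was at least 2-fold higher. Against scrambled siRNA instead of DMSO, the PD0332991 fold change crossed 1 for MYC (1.31), MAX (0.717), TRRAP (1.70), CDKN1A (0.5003), NDRG1 (0.896), GPD1 (0.747) and TXNIP (0.644), and, from values whose intervals included 1, for MXD1 (0.691), MLXIP (1.19), CDKN2B (0.572), BHLHE40 (0.530) and FASN (0.579). Below 2-fold fell MXD4 (1.56), PKLR (1.45), SHMT2 (1.48), ACTL6A (0.694), SKP2 (0.579), THBS1 (0.578) and XPO1 (0.510). The median log2 fold changes of MYC-repressed targets (-0.16), SIN3 subunits (0.099), coactivators (0.041) and other E-box factors (0.31) after PD0332991, and of glucose sensing controls (-0.043) in CDK4/6 KD, changed sign, and the median log2 fold change of MYC-induced genes was -0.68. Among the genes named here, the controls differed by more than counting error in all but MNT (fold change: 0.838, interval 0.667 to 1.05). DESeq2 size factors, a pseudocount of 5 reads and the entry with most reads for a symbol that recurs left all 10 members within their counting intervals in all 3 comparisons, and total counts moved 3 members out of them in CDK4/6 KD without a change of direction.

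A threshold of 1.5-fold gave 1 member higher and 2 lower in CDK4/6 KD, and 3 higher and 1 lower between the controls. After PD0332991 it gave 2 higher, and MLX alone was past it on the lower side (fold change: 0.465). For the listed genes that passed the filter it gave 22 higher and 48 lower of 174, 19 and 36 of 176, and 18 and 21 of 176. The share of all genes past 1.5-fold was not computed, so these counts cannot be set against it. At 2-fold the listed genes gave 7 and 19, 6 and 15, and 5 and 9. At that threshold 9.19% and 7.62%, 7.49% and 7.06%, and 5.30% and 6.64% of all genes were called. No filter gave 12 higher in CDK4/6 KD, and a filter of 50 reads 4 lower between the controls. Leaving out MXD3 and MLX left 0 members lower after PD0332991. No paired analysis was possible because each condition had 1 library without a replicate number, and for the same reason no replicate could be left out. Differences between cultures cannot be told apart from differences between conditions at any depth, and genes with few reads in a library, such as MYCL, FBXO32 and ARRDC4, have wide counting intervals besides.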
